A study of Mus musculus with 6 samples.

Results

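The regions described here are stretches of the mouse genome that carried the histone mark H3K27ac in DMSO-treated cells and lay at the start or end of a protein-coding gene. They overlapped no H3K27ac region called after CD treatment and no called peak of Flag-Rxra binding. A region belonged to the set when it was called in the DMSO list on chromosomes 1 to 19, X or Y, overlapped no region of the CD list and no peak of either Flag-Rxra list, and overlapped the 1 kb on either side of a boundary of a RefSeq gene of GRCm38, the assembly also called mm10. The regions were thus chosen by their being called or not in these 4 lists, which are measured values, so presence after DMSO and absence in the others is a description and not a finding. An overlap was 1 bp or more. This left 3351 of 75482 DMSO regions, which is 4.44% of them. Of the 75482 regions, 60996 (80.8%) met no CD region, 5268 of those (8.64%) reached a gene boundary, and 3351 of these 5268 held no Flag-Rxra peak (63.6%, exact 95% interval 62.3 to 64.9).

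The series mapped chromatin by CUT&Tag, in which an antibody guides a transposase that cuts out the DNA around its target, in mouse embryonic fibroblasts of the line OG2X129 under chemical reprogramming. CD is taken to be the CD3254 of the title, a man-made ligand that activates the retinoid X receptor. There were 6 samples in 3 groups: H3K27ac after DMSO, the solvent control, and H3K27ac after CD, with 2 samples each, and a Flag antibody in cells that overexpressed Flag-tagged Rxra, with 2 samples. All came from the same line, grown in serum medium. The labels leave out the day of sampling, the compound given to the Flag-Rxra cells, if any, and whether replicates were separate cultures. Flag-Rxra shows an overexpressed protein, and its lists stopped at a −log10 q of 5.00, against 1.00 for H3K27ac.

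Both replicates of an H3K27ac condition share 1 list. No value below therefore has a replicate error, depth is unknown, and no difference between DMSO and CD could be tested. Not being called after CD is not a measurement of zero signal: the lists hold no value where nothing was called. The DMSO list had 75482 regions and the CD list 104437. The Flag-Rxra lists had 28243 and 45999 peaks. DMSO regions lay at a boundary of 8 of 17 listed fibroblast and mesenchymal genes, where 35.8% of all genes had one. The same count was 2 of 8 for macrophage, 2 of 8 for neural, 3 of 7 for endothelial, 2 of 6 for keratinocyte and 0 of 6 for muscle markers.

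H3K27ac is placed by the acetyltransferases p300 and CBP on nucleosomes beside active promoters and enhancers, and removed by histone deacetylases. Promoters rich in CpG dinucleotides usually carry it on the nucleosomes that flank the transcription start, whereas acetylation near the 3′ end of a gene can come from an enhancer, a neighbouring gene or transcription itself. The retinoid X receptor pairs with other nuclear receptors, such as the retinoic acid, liver X and peroxisome proliferator-activated receptors, and binds repeats of the core AGGTCA. In many tissues these pairs regulate lipid, retinoid and inflammatory genes.

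A promoter sequence was available from RefSeq (GRCm38.p6) for 17492 of the 21887 protein-coding genes. For 93 promoters, counted once per region, the 200 bases before the start lay entirely inside a region of the set. The 10 with the highest −log10 q of the region are shown because here the mark covered the promoter DNA itself. CG dinucleotides are in capitals. Each runs 5′ to 3′ along the gene.
Zfp105: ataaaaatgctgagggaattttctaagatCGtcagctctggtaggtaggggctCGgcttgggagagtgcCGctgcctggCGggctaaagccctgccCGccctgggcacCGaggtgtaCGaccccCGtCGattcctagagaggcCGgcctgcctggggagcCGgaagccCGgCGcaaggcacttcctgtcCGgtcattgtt
Zkscan1: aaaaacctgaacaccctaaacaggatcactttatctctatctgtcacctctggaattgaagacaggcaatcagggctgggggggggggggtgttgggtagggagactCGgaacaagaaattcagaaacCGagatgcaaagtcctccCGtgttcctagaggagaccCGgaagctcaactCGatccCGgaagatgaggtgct
Slc35c2: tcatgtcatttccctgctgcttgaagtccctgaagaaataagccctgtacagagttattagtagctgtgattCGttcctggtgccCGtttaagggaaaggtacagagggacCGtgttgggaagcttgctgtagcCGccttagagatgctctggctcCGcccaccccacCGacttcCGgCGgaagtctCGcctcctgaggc
Zfp329: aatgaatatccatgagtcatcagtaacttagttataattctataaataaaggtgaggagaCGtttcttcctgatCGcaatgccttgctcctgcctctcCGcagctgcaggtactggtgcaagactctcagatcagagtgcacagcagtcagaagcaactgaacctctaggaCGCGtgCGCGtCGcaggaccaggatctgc
Ogt: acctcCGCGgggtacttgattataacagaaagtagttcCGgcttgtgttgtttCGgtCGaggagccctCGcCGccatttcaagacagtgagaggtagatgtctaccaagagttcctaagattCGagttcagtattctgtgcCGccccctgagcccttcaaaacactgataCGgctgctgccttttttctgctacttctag
0610040J01Rik: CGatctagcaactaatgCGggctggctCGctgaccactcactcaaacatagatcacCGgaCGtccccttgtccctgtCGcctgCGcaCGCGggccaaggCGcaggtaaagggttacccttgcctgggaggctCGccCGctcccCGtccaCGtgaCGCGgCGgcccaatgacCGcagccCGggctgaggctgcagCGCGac
Nudt5: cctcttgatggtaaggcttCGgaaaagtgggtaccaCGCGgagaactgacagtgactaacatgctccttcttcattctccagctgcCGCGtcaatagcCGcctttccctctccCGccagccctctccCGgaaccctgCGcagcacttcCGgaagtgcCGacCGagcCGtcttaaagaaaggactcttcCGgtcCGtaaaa
Clns1a: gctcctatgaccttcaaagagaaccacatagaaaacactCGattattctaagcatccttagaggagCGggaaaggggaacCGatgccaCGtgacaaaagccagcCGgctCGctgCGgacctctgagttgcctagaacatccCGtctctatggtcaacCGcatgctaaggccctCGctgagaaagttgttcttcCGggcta
Parpbp: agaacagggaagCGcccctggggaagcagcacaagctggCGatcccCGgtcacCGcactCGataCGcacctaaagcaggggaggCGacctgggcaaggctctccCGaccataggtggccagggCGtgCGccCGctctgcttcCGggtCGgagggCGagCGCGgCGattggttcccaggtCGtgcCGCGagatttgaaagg
Ly6f: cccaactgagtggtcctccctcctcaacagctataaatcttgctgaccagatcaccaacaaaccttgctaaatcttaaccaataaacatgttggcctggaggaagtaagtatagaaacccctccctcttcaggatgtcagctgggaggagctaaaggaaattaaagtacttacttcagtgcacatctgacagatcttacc

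On the plus strand of GRCm38 these stretches are chr9:122922878-122923077 for Zfp105, chr5:138084884-138085083 for Zkscan1, chrX:101640018-101640217 for Ogt, chr5:63812295-63812494 for 0610040J01Rik, chr2:5844834-5845033 for Nudt5, chr7:97696457-97696656 for Clns1a and chr15:75268221-75268420 for Ly6f. On the minus strand they are chr2:165287839-165288038 for Slc35c2, chr7:12818861-12819060 for Zfp329 and chr10:88146942-88147141 for Parpbp. All lie directly upstream of the annotated start. These 10 promoters ranged from 0 CG dinucleotides in Ly6f, a member of the Ly6 family of surface proteins, to 21 in 0610040J01Rik. Zfp329, Ogt and Clns1a held 8, 10 and 11. Ogt encodes the enzyme that attaches N-acetylglucosamine to nuclear and cytosolic proteins, Nudt5 an ADP-ribose hydrolase and Clns1a a chaperone of spliceosome assembly. Zfp105, Zkscan1 and Zfp329 encode zinc finger proteins. Of the motifs searched, the TATA motif TATAAA lay in Zfp329 and Ly6f, the E-box CACGTG in 0610040J01Rik and Clns1a, and the core AGGTCA in Clns1a alone. The gap to the nearest Flag-Rxra peak was at least 7502 bp for these 10 promoters' regions. The regions over the Nudt5 and Clns1a promoters lay 157 bp and 215 bp from a CD region, and the one over Ly6f lay 27829 bp from it.

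Most regions of the set were narrow and weak. The median width was 311 bp (95% interval of the median 302 to 322) and the median fold, the deposited enrichment over the background that the peak caller estimated, was 3.04 (3.03 to 3.05), ranging from 2.08 to 14.0. The median −log10 q, the caller's adjusted confidence, was 1.46 (1.44 to 1.48). A −log10 q of 2 or more was reached by 461 of 3351 (13.8%, 12.6 to 15), against 18.3% of all DMSO regions. A value of 3 or more was reached by 48 and of 5 or more by 2. Since the DMSO list stopped at 1.00, the typical region stood close to the point below which nothing was recorded.

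The other kinds of region differed little in fold and more in width. DMSO-only regions at gene boundaries that did hold a Flag-Rxra peak (1917) had a median width of 469 bp (453 to 488) and a −log10 q of 2 or more in 22.8% (20.9 to 24.7). DMSO regions at boundaries that overlapped a CD region and held no Flag-Rxra peak (777) had a median width of 430 bp (406 to 458) and 21.8% (18.9 to 24.8). DMSO-only regions away from gene boundaries and without Flag-Rxra (51640) had a median width of 281 bp and 14.4% (14.1 to 14.7). The mirror set, 4740 CD-only regions at gene boundaries without Flag-Rxra, had a median width of 283 bp, a median fold of 3.08 and 11.4% (10.5 to 12.3). The rule counts any overlap of 1 bp or more, and a wider region offers more bases for it. The part of this in the differences was not tested, and no difference was tested.

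**Figure D1:**
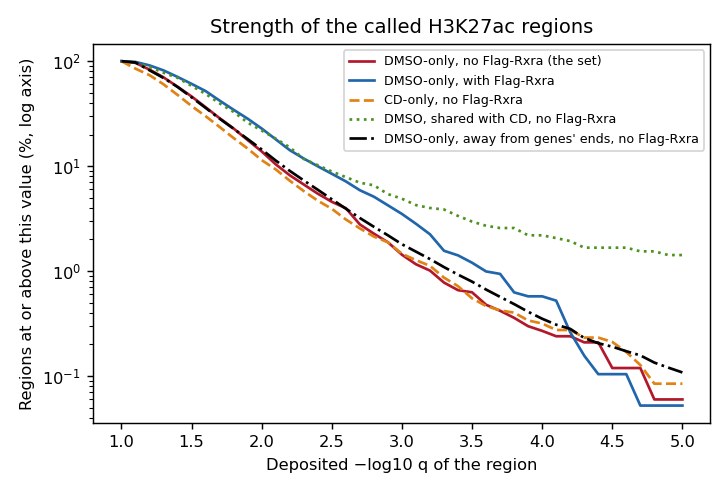
Share of regions (vertical axis, %, log scale) with at least the deposited −log10 q on the horizontal axis, 1 line per kind of region. The line of the set falls to 13.8% at 2 and 1.43% at 3, along the lines of CD-only regions and of DMSO-only regions away from genes, and under those of regions with Flag-Rxra or shared with CD.

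1 region stood apart from all others. It lay inside Zfp599, a zinc finger gene, at chr9:22258890-22259149, with a fold of 14.0 and a −log10 q of 40.8. No genome sequence or list of artefact-prone regions was used here, so it was not checked for repeats or mapping problems. A CD region of fold 3.63 lay 161 bp away, and the nearest Flag-Rxra peak lay 695 bp away in replicate 1 and 31295 bp away in replicate 2. The next strongest region had a fold of 5.35 and a −log10 q of 5.13 and spanned the start of Gpx6, a glutathione peroxidase gene, at chr13:21295294-21295503. No CD region lay within 16944 bp of it. Zfp599 carried a second region of the set at its other boundary, 652 bp wide, with a fold of 3.30.

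The next 13 by −log10 q lay between 3.67 and 4.79. At gene ends these were Pheta1, which takes part in endosomal trafficking (fold 4.47, spanning the end), Ugcg, the glucosylceramide synthase (4.55), Ccnjl, a cyclin J-like gene (3.93), Pon2, a paraoxonase (4.95), Tmem229b (4.53) and Bcl2l11, which encodes the cell death protein Bim (4.44). At gene starts they were Mob4 (fold 4.33), Cxcr6, a chemokine receptor (4.46), Cpsf6, a factor of mRNA 3′ processing (4.44), Ssbp1, the mitochondrial single-stranded DNA-binding protein (4.41), Bzw1 (3.84) and Zfp780b (4.47). The last, at Exd2 (4.54), lay at a boundary whose strand the tables do not give. Flag-Rxra peaks came close to several of these: 21 bp from the Mob4 region, 9 bp from the Exd2 region and 358 bp from the Cpsf6 region. The Pon2 region, in contrast, lay 31234 bp from the nearest Flag-Rxra peak and 25180 bp from the nearest CD region. The Ssbp1 region had a CD region 1 bp away, so that its place in the set rests on a gap of 1 bp.

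Width picked out other genes. 99 regions (2.95%) were 1000 bp or wider. The widest, 2428 bp at Gem, a small GTP-binding protein gene, had a fold of 2.66 and a −log10 q of 1.34. Ifi207, an interferon-inducible gene, carried 1849 bp over its start (fold 3.62), and Dnmt1, the maintenance DNA methyltransferase, 1843 bp over its start (fold 2.87). No CD region lay within 5315 bp of the Ifi207 region or within 7280 bp of the Dnmt1 region. A region of 1788 bp overlapped Slc35g3 and reached the start window of Polr2a, which encodes the largest subunit of RNA polymerase II. Others were 1748 bp at Tnni2, a muscle troponin gene, 1722 bp past the end of Gnas, which encodes a stimulatory G protein subunit, 1680 bp over the starts of both Taf6 and Cnpy4, and 1662 bp near the end of Arhgdia. Their folds ran from 2.56 to 3.62, so the widest regions were not the strongest.

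Regions of the set lay at gene ends nearly as often as at gene starts. For 2602 of the 3351 (77.6%) the strand of every gene touched was known. Of these, 1347 lay in start windows only (51.8%, 49.8 to 53.7), 1134 in end windows only (43.6%, 41.7 to 45.5) and 121 in both (4.65%). The mirror CD-only set gave 48.5% (46.9 to 50.1) start only and 46.9% (45.3 to 48.5) end only. DMSO-only regions with a Flag-Rxra peak gave 89.3% (87.6 to 90.8) and 4.72% (3.71 to 5.90). Flag-Rxra peaks themselves lay in 47.0% of start windows and 8.40% of end windows, and the rule leaves out regions with such a peak. The part of this in the split between starts and ends was not tested. Among regions of −log10 q 2 or more, 62.5% (57.3 to 67.5) reached a start window, against 55.4% (53.4 to 57.5) of the weaker ones.

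Within start windows the regions did not centre on the start. The median distance from the annotated start was 444 bp (422 to 472), and 203 of 1497 (13.6%, 11.9 to 15.4) spanned it. This share was 12.1% (10.7 to 13.6) in the CD-only set and 14.3% (11.2 to 17.9) for DMSO regions shared with CD and without Flag-Rxra. Of DMSO-only regions with Flag-Rxra, 48.3% (45.8 to 50.9) spanned the start. The rule leaves those regions out, so it bears on this position, and its part was not tested. The centre lay inside the gene for 57.2% (54.6 to 59.7), and the fullest 200 bp stretch was 600 to 800 bp downstream of the start, with 11.4% of the regions. Regions of 500 bp or more spanned the start in 23.8% (19.8 to 28.1) and narrower ones in 9.57% (7.88 to 11.5). In end windows the median distance from the annotated end was 448 bp (412 to 477), 158 of 1299 (12.2%, 10.4 to 14.1) spanned the end, and 49.1% (46.4 to 51.9) had their centre inside the gene. The median fold was 3.03 in start windows and 3.04 in end windows.

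**Figure D2:**
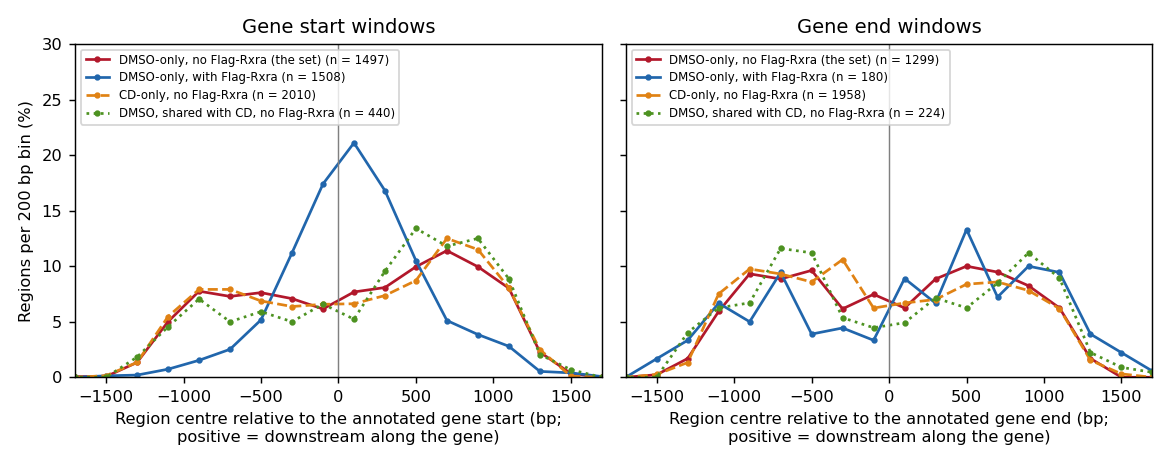
Share of regions (vertical axis, %) whose centre falls in each 200 bp bin around the annotated start (left) or end (right) of a gene (horizontal axis, bp, positive values downstream along the gene), 1 line per kind of region. The set reaches 11.4% per bin at 600 to 800 bp after the start and has no peak at the start itself, where DMSO-only regions with Flag-Rxra are concentrated. The rule leaves regions with a Flag-Rxra peak out of the set. A region that touches windows of several genes is counted once at each kind of boundary.

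The promoters that regions of the set did touch were near the genome's average in base composition. A region overlapped the 300 bp promoter (250 before to 50 after the start) for 351 of 21263 promoters, which belong to 331 genes, and 66 promoters lay wholly inside one. The median GC content was 57.7% (56.3 to 58.7), against 56.3% over all promoters, and the median ratio of observed to expected CpG was 0.60 (0.556 to 0.648), against 0.567. A ratio of 0.6 or more was found in 50.1% (44.8 to 55.5) and in 47.7% of all promoters. For the CD-only set the median ratio was 0.531 (0.439 to 0.589), for DMSO regions shared with CD 0.728 (0.682 to 0.779), and for DMSO-only regions with Flag-Rxra 0.821 (0.804 to 0.833). The composition of the set depended on the Flag-Rxra lists: without replicate 1 the number of promoters was 527 and the median ratio 0.704, and without replicate 2 they were 476 and 0.647. With only DMSO regions of −log10 q 2 or more, 69 promoters remained and the median ratio was 0.724.

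**Figure D3:**
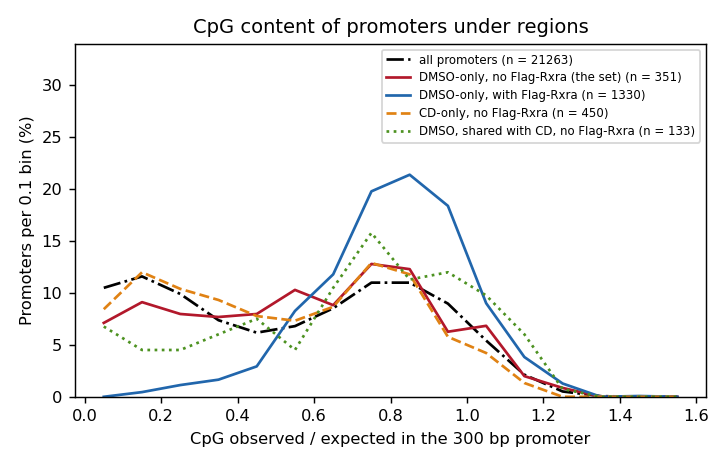
Distribution of the observed to expected CpG ratio (horizontal axis) of 300 bp promoters touched by each kind of region, as a share of promoters per 0.1 bin (vertical axis, %). The set, with a median of 0.60, follows the line of all promoters (0.567), while promoters under DMSO-only regions with Flag-Rxra (0.821) lie to its right.

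Motif letters were counted on both strands of these 351 promoters. A match is a description of the letters and not a binding site. The nuclear receptor core AGGTCA was present in 15.7% (12 to 19.9), against 14.7% of all promoters. Direct repeats, AGGTCA followed by a second AGGTCA after 1, 4 or 5 bases, were present in 0 of 351, which allows up to 1.05% for each spacing. Of all promoters 0.0470%, 0% and 0.00470% held them. The GC box GGGCGG was in 48.7% (43.4 to 54.1), against 46.2% of all promoters and 74.1% (71.7 to 76.5) under DMSO-only regions with Flag-Rxra. TATAAA was in 10.5% against 12.6%, CCAAT in 33.6% against 38.2%, the AP-1 site TGACTCA, of which TGAGTCA is the reverse complement, in 4.84% against 4.66%, the ETS-type ACTTCCGG in 7.12% against 5.15% and the NRF1-type palindrome of GCGC, AT and GCGC in 1.71% against 1.33%. CACGTG, the E-box of Myc and USF, was in 11.1% (8.02 to 14.9) against 7.84%. The other kinds of region were alike in this, with 10.2% for CD-only, 10.8% for DMSO-only with Flag-Rxra and 11.3% for shared regions. The cAMP response element TGACGTCA was in 3.99% (2.2 to 6.60) against 2.23%. The interferon-response type, GAAA followed by GAAA after 2 bases, was in 5 of 351 (1.42%, 0.464 to 3.29), against 3.35% of all promoters. It was in 2.22% (1.07 to 4.05) under CD-only regions and 2.18% (1.47 to 3.12) under DMSO-only regions with Flag-Rxra. Under DMSO regions shared with CD it was in 8.27% (4.20 to 14.3).

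Most regions of the set had no CD region within 1 kb. The median gap from a region of the set to the nearest CD region was 3081 bp (2918 to 3299). 750 of 3351 (22.4%, 21.0 to 23.8) had one within 1000 bp, 85 (2.54%) within 100 bp, and 64.0% (62.3 to 65.6) within 5000 bp. In 712 cases (21.2%, 19.9 to 22.7) a CD region lay elsewhere in a gene window that the region touched. The corresponding share for the CD-only set, with a DMSO region elsewhere in the window, was 18.4% (17.3 to 19.6). A DMSO region shared with CD lay within 1000 bp of only 2.98% (2.43 to 3.62), and the DMSO list holds no 2 regions closer than 585 bp. Strong and weak regions hardly differed here: 23.0% (19.2 to 27.1) of those with a −log10 q of 2 or more had a CD region within 1000 bp, and 22.3% (20.8 to 23.8) of the others.

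Flag-Rxra peaks were absent from the regions by the rule but not from their surroundings. The median gap to the nearest peak of either replicate was 3416 bp (3161 to 3719), and 1054 regions (31.5%, 29.9 to 33.1) had one within 1000 bp, 162 of them (4.83% of all regions) within 100 bp. Start windows with a region of the set numbered 1560 of 17492 (8.92%). Of these 1560, 52.0% (49.5 to 54.5) also held a Flag-Rxra peak elsewhere in the window, against 47.0% of all start windows, 26.8% (24.6 to 29.1) also held a CD region, against 29.8%, and 39.4% (36.9 to 41.8) held neither. End windows with a region numbered 1362 of 17492 (7.79%). Of these 1362, 10.5% (8.92 to 12.3) also held a Flag-Rxra peak, against 8.40%, 15.6% (13.7 to 17.6) a CD region, against 14.2%, and 77.0% (74.7 to 79.2) neither. These shares are a description: by the rule, a window counted here holds a DMSO region and a stretch free of CD and Flag-Rxra calls, and the part of this in the shares was not tested.

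**Figure D4:**
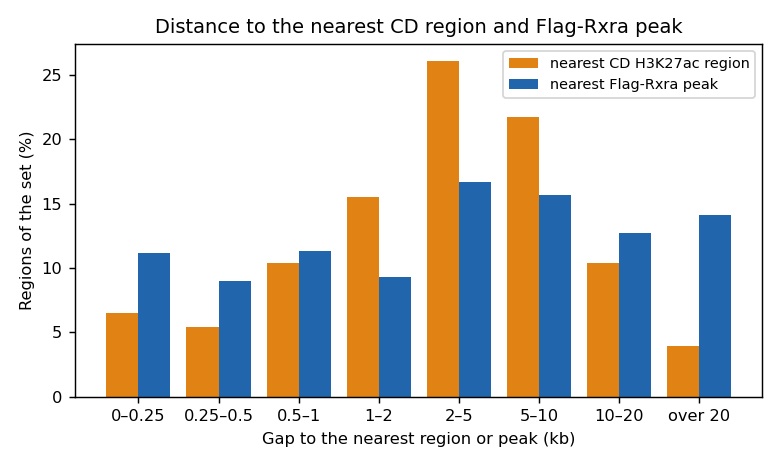
Share of the 3351 regions (vertical axis, %) by the gap to the nearest CD region and the nearest Flag-Rxra peak of either replicate (horizontal axis, kb, bins of unequal width). Gaps of up to 0.25 kb hold 6.54% for CD and 11.2% for Flag-Rxra, and gaps over 20 kb hold 3.97% and 14.1%.

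The 3351 regions marked a boundary of 3438 of 21887 protein-coding genes (15.7%). Any DMSO region marked 7845 genes (35.8%), and 43.8% of these had a region of the set. Of the 3438 genes, 1497 (43.5%, 41.9 to 45.2) also had a CD region at a boundary, against 38.3% of all genes, and 81.6% (80.2 to 82.8) had one in the gene or within 1 kb of it, against 68.3%. A Flag-Rxra peak stood at a boundary of 60.0% (58.3 to 61.6), against 49.5%, and a CD-only region without Flag-Rxra at 25.8% (24.3 to 27.3), against 21.6%. Neither CD nor Flag-Rxra was called at a boundary of 933 (27.1%, 25.7 to 28.7), against 39.9% (39.3 to 40.6) of all genes. By the rule all 3438 genes have a DMSO region at a boundary, whereas 35.8% of all genes do. The part of this, and of gene length, in these shares was not tested.

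Most genes had a single region. 3171 had 1, 259 had 2 and 8 had 3, and 192 genes had separate regions at both boundaries. Genes with 3 included Srpk1, a kinase of splicing factors, Sult2b1, a sterol sulfotransferase, Slc12a9, Cdkl3, Polr2f, a subunit shared by the RNA polymerases, and Col4a2, a chain of basement membrane collagen IV. The Col4a2 regions had folds of 3.06 and 2.69 near the start and 2.69 over the end. Both start regions also lay in the start window of the neighbouring collagen gene Col4a1. Srpk1 had folds of 3.03 and 3.38 at its end and 3.03 at its start, with no CD region within 1384 bp of any of them.

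352 regions (10.5%, 9.49 to 11.6) touched windows of 2 or more genes. Where every strand was known (256), 95 joined only starts, 82 only ends and 79 a start with an end. The strongest of these multi-gene regions had a fold of 3.99 and lay before the common start of Cers1, a ceramide synthase, and Gdf1, a growth factor gene. The one in the start windows of S100pbp and Yars, the tyrosyl-tRNA synthetase, had a fold of 3.81, lay inside Yars from 187 bp after its start and had Flag-Rxra peaks 40 bp and 35 bp away in replicates 1 and 2. Regions at Ptges3l and Rundc1 (fold 3.98), Rsph6a and Dmwd (3.82), Rpl36 and Lonp1 (2.97), and Gnptg and Tsr3 (3.66) were next. A region in windows of 2 genes was counted for both and could not be assigned to either.

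Genes were then read in 50 groups: 27 lists of pathways, complexes and cell type markers, and 23 symbol families. For 41 of them the exact 95% interval held the 15.7% of all genes. The interval lay above it in 4 groups and below it in 5, with no adjustment for the number of groups. A CD-only region without Flag-Rxra stood at 21.6% of all genes, the share to set beside the CD-only counts below. Family members that share a locus share regions, and the groups differ in how many of their genes carry any DMSO region, so the number of DMSO-marked genes is given for several of them.

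The 4 groups above were the Wnt pathway, kinesins, interferon and nucleic acid sensing, and collagen chains. In the Wnt pathway, 13 of 33 genes had a region (39.4%, 22.9 to 57.9), out of 20 with any DMSO region. A CD-only region stood at 7 (21.2%), where 21.6% of all genes had one. By role, the 13 were the ligands Wnt4, Wnt5a, Wnt7b and Wnt11 with their carrier Wls, and the receptors Fzd5, Fzd8 and Lrp6. Inside the cell they were Dvl1, Dvl2, Axin1, Axin2 and Gsk3b, the last 3 being parts of the complex that marks β-catenin for breakdown. The 4 highest by −log10 q were Axin1 (fold 3.13, −log10 q 1.80), Dvl1 (2.93, 1.76), Gsk3b (3.0, 1.68) and Wnt5a (2.86, 1.67). All 13 were weak, and with only DMSO regions of −log10 q 2 or more the count was 0. At that threshold 514 of all 21887 genes kept a region, so a count of 0 in a list of this size says little. The Gsk3b region had a CD region 272 bp away in the same window, whereas no CD region lay within 5412 bp of the Wnt5a region.

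Of the interferon and nucleic acid sensing genes, 10 of 30 had a region (33.3%, 17.3 to 52.8), out of 15 DMSO-marked, and 8 had a CD-only region (26.7%). They included the sensor adaptor Sting1 and the kinase Ikbke, the receptor chain Ifnar1, the factors Irf1 and Irf3, and the interferon-induced genes Ifit1, Rsad2, Oasl2 and Bst2. Ifit1 (fold 3.51) and Rsad2 (3.44) had theirs beyond the gene end, and Irf1 (2.74) had one 287 bp before the start, with a Flag-Rxra peak 11 bp away in replicate 1. None reached a −log10 q of 2, so this count was also 0 at that threshold, where 514 of all 21887 genes kept a region. In the list of NF-kB and inflammation genes 7 of 32 had a region (21.9%, 9.28 to 40), out of 15 DMSO-marked, with 7 also for the CD-only set. Nfkbia, the inhibitor of NF-kB, had a −log10 q of 2.46 and a fold of 2.82 just past its end. Il6, the cytokine gene, had a region of fold 3.04 with a CD region 56 bp away.

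Kinesins, the motors that move along microtubules, had 13 of 38 genes with a region (34.2%, 19.6 to 51.4), out of 19 DMSO-marked. A CD-only region stood at 9 (23.7%). Kif3b, a subunit of the ciliary transport motor, was the strongest (fold 3.66, −log10 q 2.63), before Kif16b (3.63, 2.01) and the mitotic Kif14 (3.48, 1.90). Collagen chains had 13 of 44 (29.5%, 16.8 to 45.2), out of 19 DMSO-marked, and 9 with a CD-only region (20.5%). Here Col9a3 (fold 3.75, −log10 q 3.03), Col9a2 (3.72, 2.18), Col7a1 (2.72, 2.1) and Col13a1 (3.58, 2.05) led. The 2 collagen IX genes encode cartilage chains and Col7a1 the anchoring fibril collagen. At a −log10 q of 2 or more, 2 of 38 kinesin and 5 of 44 collagen genes were left, against 514 of all 21887 genes. In the fibroblast list 2 of 17 genes had a region (11.8%, 1.46 to 36.4), the collagen gene Col5a2 (fold 2.76) and Pdgfra, a growth factor receptor of mesenchymal cells (2.95).

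In the list of TGF-β and BMP genes 8 of 27 had a region (29.6%, 13.8 to 50.2), out of 14 DMSO-marked, and 9 had a CD-only region (33.3%). They included the ligands Bmp4, Tgfb1, Tgfb3 and Inhba, the antagonist Fst, and the receptors Acvr2a and Tgfbr3. The Bmp4 region was the strongest of the list, with a fold of 4.01 and a −log10 q of 2.54, 174 bp before the start and 46906 bp from the nearest CD region. Acvr2a (fold 3.56) was also far from CD, at 35314 bp. Inhba, which encodes activin A, had a fold of 3.50 at 4 bp before its start.

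For genes of the receptor's own pathway the intervals were wide and held the background. Of the retinoid receptors and their partners 5 of 17 had a region (29.4%, 10.3 to 56.0): the retinoic acid receptors Rarb (fold 3.31) and Rarg (2.70), the lipid sensor Ppard (2.86), and the orphan receptors Nr4a1 (2.69) and Nr4a2 (3.0). The Rarb and Ppard regions lay at the gene end, and those of Rarg, Nr4a1 and Nr4a2 before the gene start. Rxra, Rxrb and Rxrg had none. Of the known targets of RXR heterodimers 5 of 25 had one (20%, 6.83 to 40.7), among them Rarb, the retinoid-degrading enzyme Cyp26b1 (fold 2.29), Angptl4, an inhibitor of lipoprotein lipase (2.68), and Scd1, the stearoyl-CoA desaturase (2.68). The Cyp26b1 region lay at the gene end, and at Angptl4 and Scd1 start and end could not be told apart. The CD-only set held 4 and 6 genes of these 2 lists (23.5% and 24.0%), where it held 21.6% of all genes. A Flag-Rxra peak lay at a boundary of 11 of the 17 and 19 of the 25.

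Among the pluripotency genes 5 of 22 had a region (22.7%, 7.82 to 45.4), out of 9 DMSO-marked: Prdm14 (fold 3.42), Klf4 (2.56), Dppa5a (2.88), Tet2 (2.94) and Tdgf1 (2.86). The Klf4 region, inside the gene, had a CD region 62 bp away, and the Prdm14 region had none within 8309 bp. Of the AP-1 and other somatic factors, 16 of 20 carried a DMSO region but 3 had one of the set (15%, 3.21 to 37.9): Fos (2.77), Tead2 (2.94) and Atf3 (2.71). This count was 5 without Flag-Rxra replicate 1, and 7 with CD regions of −log10 q 2 or more or with a window of 2000 bp. It was 6 when a CD region had to cover 50% of a region. It was 1 with a window of 500 bp, and 0 with DMSO regions of −log10 q 2 or more. Over all genes the count was 3438 as reported, 5756 and 1959 with windows of 2000 and 500 bp, and 514 with the stricter DMSO list. The choices that relax the CD or Flag-Rxra part of the rule can only add regions, at all genes. Their counts over all genes are not reported here, so these rises are not particular to this list.

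Among the genes of the RNA exosome, the nuclease complex of RNA decay and 3′ processing, 5 of 14 had a region (35.7%, 12.8 to 64.9). A CD-only region stood at 1 (7.14%), where 21.6% of all genes had one. These were Exosc5 (fold 2.88), Exosc6 (2.47), Exosc9 (3.03), the nuclease Exosc10 (2.95) and Mphosph6 (3.03). Their −log10 q ran from 1.15 to 1.38, and none reached 2. The regions at Exosc5, Exosc10 and Mphosph6 lay at or beyond the gene end, between 1101 and 5304 bp from CD, and the Exosc9 region lay in a window that Ccna2, a cyclin gene, also reaches. A DMSO region of any kind stood at 13 of the 14 genes and a Flag-Rxra peak at all 14. Of the DMSO-marked exosome genes 38.5% had a region of the set, where 43.8% of all DMSO-marked genes did. In the related list of exosome cofactors 2 of 14 had a region (14.3%, 1.78 to 42.8), and in that of mRNA decay and quality control 6 of 28 (21.4%, 8.30 to 41.0), among them the nonsense-mediated decay gene Smg1 (fold 3.20).

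Of the genes that silence retroelements 6 of 22 had a region (27.3%, 10.7 to 50.2), out of 16 DMSO-marked. These were the histone H3 lysine 9 methyltransferases Setdb1 and Ehmt1, the Setdb1 partner Atf7ip, the heterochromatin protein Cbx5, Tasor of the HUSH complex and Dnmt1. Ehmt1 (fold 3.65, −log10 q 2.12), Atf7ip (3.64, 2.12) and Cbx5 (3.68, 2.05) had theirs beyond the gene end. Autophagy genes had 9 of 29 (31.0%, 15.3 to 50.8), but 26 of the 29 were DMSO-marked. The lipidation enzyme Atg3 (fold 3.30, 104 bp inside the start) had a CD region 246 bp away, and Atg2b (3.21) had none within 10459 bp.

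The intervals of the remaining lists held the background too. Cholesterol synthesis had 3 of 23 (13.0%, 2.78 to 33.6), among them Mvk and Tm7sf2. Cell cycle and mitosis had 4 of 30 (13.3%, 3.76 to 30.7), and 7 without Flag-Rxra replicate 1. DNA repair had 6 of 36 and splicing factors 6 of 36 (each 16.7%, 6.37 to 32.8), out of 23 and 25 DMSO-marked. Aminoacyl-tRNA synthetases had 8 of 37 (21.6%, 9.83 to 38.2), out of 28, led by Yars. Chromatin acetylation and deacetylation had 4 of 27 (14.8%, 4.19 to 33.7), with the acetyltransferases Kat6a and Kat8 and the deacetylases Hdac6 and Sirt2. A CD-only region stood at 10 of these genes (37.0%), where 21.6% of all genes had one. Polycomb and Trithorax genes had 2 of 29 (6.90%, 0.846 to 22.8), the methyltransferases Kmt2a and Kmt2b, and 4 without Flag-Rxra replicate 1. Leaving that replicate out can only add regions, at all genes, and the count over all genes without it is not reported here. A CD-only region stood at 7 of the 29 (24.1%). Housekeeping genes had 3 of 15 (20%, 4.33 to 48.1).

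Among markers of other cell types, macrophage markers had 0 of 8, with an interval up to 36.9%, and muscle markers 0 of 6, with one up to 45.9%. Neural markers had 2 of 8, Gfap (fold 2.73) and Nes (2.63). Endothelial markers had 2 of 7, Kdr (3.03) and Pecam1 (2.96), and keratinocyte markers 2 of 6, Dsp (3.11) and Trp63 (3.03). The Gfap, Nes, Kdr and Dsp regions lay at gene ends, and at Pecam1 and Trp63 start and end could not be told apart. The −log10 q of all these regions ran from 1.16 to 1.56. With so few genes the intervals were wide, reaching from 3.19% to 65.1% for neural markers.

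The 5 groups under the background were gene families. Olfactory receptors had 13 of 1110 genes (1.17%, 0.625 to 1.99), vomeronasal receptors 4 of 355 (1.13%, 0.308 to 2.86), defensins 4 of 70 (5.71%, 1.58 to 14.0), keratins and keratin-associated proteins 9 of 109 (8.26%, 3.85 to 15.1) and predicted genes 136 of 1748 (7.78%, 6.57 to 9.14). These families carried few DMSO regions of any kind, 17, 6, 6, 9 and 289. Of the genes with a DMSO region, 13 of 17 olfactory, 4 of 6 vomeronasal, 4 of 6 defensin, 9 of 9 keratin and 136 of 289 predicted genes (47.1%) had one of the set, where 43.8% of all DMSO-marked genes did. The strongest keratin, defensin and olfactory receptor genes by −log10 q were Krt8, an epithelial keratin (fold 3.54, −log10 q 3.09), Defa43, an intestinal defensin (4.05, 2.64), and Olfr267 (3.83, 2.34). Hox genes were like them in this respect, with 10 of 39 genes (25.6%, 13.0 to 42.1) but 10 of 12 DMSO-marked, among them Hoxa3 (fold 3.23) and Hoxb8 (3.27).

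Among the other families, cytosolic ribosomal proteins had 16 of 84 (19%, 11.3 to 29.1), but that was 23.2% of their 69 DMSO-marked genes. Proteasome subunits had 8 of 51, or 22.2% of 36, histones 8 of 67, or 21.1% of 38, and centrosomal proteins 5 of 38, or 21.7% of 23. Mitochondrial ribosomal proteins had 15 of 78, or 31.9% of 47, Rab GTPases 10 of 59, or 31.2% of 32, and respiratory chain and ATP synthase genes 18 of 84, or 35.3% of 51. Without Flag-Rxra replicate 1 the proteasome and histone counts were 14 each. Those of cytosolic and mitochondrial ribosomal proteins were 19 and 18, and that of centrosomal proteins was 6. The count of respiratory chain and ATP synthase genes stayed at 18. The count over all genes without that list is not reported here. Zinc finger genes had 72 of 424 (17.0%, 13.5 to 20.9), or 35.8% of 201, and solute carriers 61 of 389 (15.7%, 12.2 to 19.7), or 43.9% of 139. A Flag-Rxra peak stood at a boundary of 73 of the 84 ribosomal protein genes and 17 of the 1110 olfactory receptor genes, and the rule keeps regions without such a peak. The part of this in the shares of DMSO-marked genes was not tested.

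**Figure D5:**
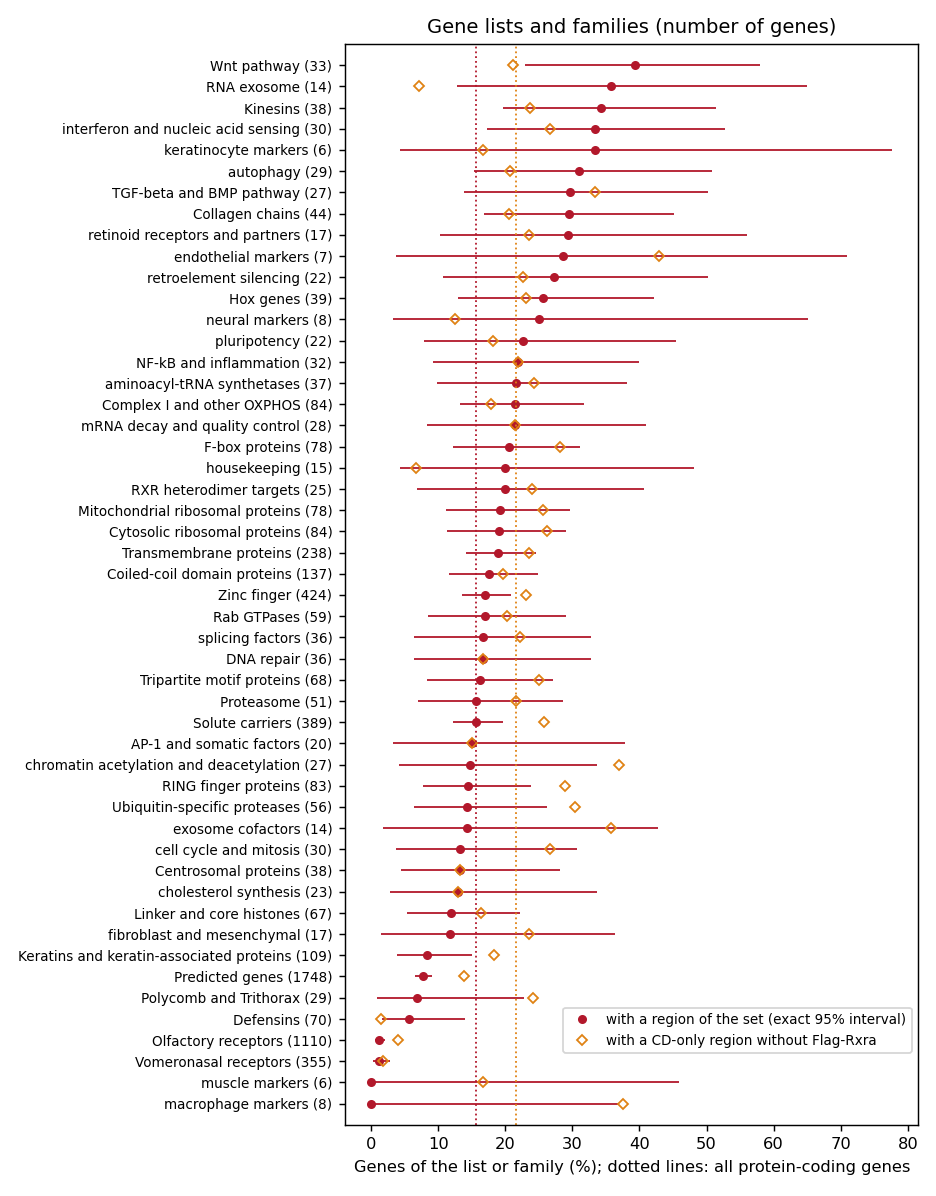
Share of genes (horizontal axis, %) with a region of the set at a boundary, for 27 lists and 23 families (vertical axis, number of genes in brackets). Filled circles and lines show the share and its exact 95% interval, open diamonds the share with a CD-only region without Flag-Rxra, and dotted lines the shares of all protein-coding genes, 15.7% and 21.6%. The intervals of the Wnt pathway, kinesins, interferon genes and collagens lie above 15.7%, and those of the receptor families, defensins, keratins and predicted genes below.

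Regions of the set were spread over all chromosomes. On the autosomes the share of genes with one ran from 12.4% (11.0 to 13.9) on chromosome 7 to 20.2% (17.8 to 22.8) on chromosome 8. On chromosome X it was 4.76% (46 of 966 genes, 3.51 to 6.30) and on Y 0.781% (2 of 256). The DMSO list had 696 regions on X and the CD list 1268, and 6.75% of those 696 belonged to the set, so X was low in the list as a whole. Genes for long noncoding RNA were overlapped by 237 regions (7.07%, 6.23 to 7.99), microRNA genes by 5 (Gm51264, Mir6359, Mir6376, Mir6974 and Mir7666) and snoRNA genes by 5. No region overlapped any of the 408 tRNA, 1004 snRNA or 63 rRNA genes, which allows up to 0.110% of the 3351 for each kind. These overlaps were not counted for all DMSO regions, so they cannot be called a trait of the set.

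The edges of the rule cut through regions of like strength. Just inside the window, at 1000 bp from the boundary, stood Prg3 (fold 2.96), Mdm1 (2.73) and Actn4 (2.72), and just outside, at 1001 or 1002 bp, Mtfp1 (3.33), Pltp (2.88) and 9530057J20Rik (3.55). Usp8 (3.26), Ssbp1 (4.41) and Armcx1 (3.88) were kept with a CD region 1 bp away, while Acod1 (3.46) and Dst (3.44) were left out for an overlap of 2 and 3 bp. Cep72 (3.22), Psmc6 (3.56) and Srsf3 (3.10) were kept with a Flag-Rxra peak 1 bp away, while Gtf2h3 (3.25) and Ccdc8 (2.99) were left out for an overlap of 1 and 2 bp.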

How the data were processed

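CUT&Tag peak lists for H3K27ac after DMSO, for H3K27ac after CD and for 2 Flag-Rxra replicates were used as deposited. The submitters' processing notes list, on build mm10, MACS2 2.1.2 and Bowtie2 2.2.5 beside deepTools 3.4.3 and fastp 0.20.1. Neither the use of a control library nor the way the H3K27ac replicates were joined is stated in the labels. The fold of a region is the authors' deposited ratio over the peak caller's background. The −log10 q is the authors' deposited value, and the deposited score repeats the −log10 q. Regions are called by the authors, and a value serves only to describe or rank within a list. Depth is unknown.

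Overlaps, distances and shares were computed with pandas 2.3.3, numpy 2.4.6 and scipy 1.17.1 under Python 3.11.15, with matplotlib 3.10.9 for plots. The functions for overlaps, distances and the rule of the set were tested on simulated intervals, and the motif search was not. Gene positions were those of RefSeq on GRCm38.p6 (21887 protein-coding genes), and strand and promoters from a RefSeq promoter table that covers 17492 of them. For the other 4395 genes start and end could not be told apart. Regions on unplaced contigs and the mitochondrial genome (106 in the DMSO list) were left out. Promoters on chromosome 18 were left out of the count of promoters with all 200 upstream bases inside a region, and of those shown. Shares carry exact (Clopper-Pearson) 95% intervals, and medians carry distribution-free 95% intervals. Both cover counting error only, because neighbouring regions are not independent. No test between conditions was made. The regions and the gene lists were chosen with earlier results of these data known, and patterns of 5 gene families were corrected after first counts. Named genes are the 15 highest by −log10 q, the 8 widest regions, genes with most regions or with regions at both boundaries, the 6 strongest over several genes, the genes of each list (all up to 5, otherwise the 4 highest) and those at the thresholds. Other list members are named without values, and some genes of the lists are not reported here. Alternatives were thresholds, windows, overlaps and single Flag-Rxra lists.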

Additional observations from a re-analysis of the deposited data

How the results depend on the processing

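Of the choices tried, the threshold of the DMSO list changed the set most. With DMSO regions of −log10 q 2 or more, 461 regions, 514 genes and 69 promoters were left, 62.5% lay in a start window against 56.4%, the median width was 289 bp, the median fold 3.6, the median −log10 q 2.29, and the promoters' median CpG ratio 0.724 and GC content 59.0%. A window of 500 bp gave 1873 regions at 1959 genes, a CD region in the same window for 9.61%, a median width of 333 bp and a median fold of 3.05. A window of 2000 bp gave 5856 regions at 5756 genes, 37.9% and 301 bp. With CD regions of −log10 q 2 or more, 58.7% lay in a start window, 2.5% had a CD region in the same window, the median width was 327 bp and the median −log10 q 1.48. When a CD region had to cover 50% of a region to remove it, 27.9% had a CD region in the window and the median width was 331 bp. When a CD region within 500 bp also removed it, 13.2% had one. Without Flag-Rxra replicate 1 or 2, the share in a start window was 58.7 to 60.4%, promoters numbered 476 to 527, their median CpG ratio was 0.647 to 0.704 and their GC content 58.0 to 59.0%, while regions numbered 3598 to 3752. With Flag-Rxra peaks of −log10 q 10 or more, all these values stayed within 1.5 times of the count or inside the interval of the reported value. Of 450 recomputed counts of gene lists and families, 321 stayed within 1.5 times and 129 did not, and of 117 motif shares 113 stayed inside the reported interval and 4, all with the stricter DMSO list, did not. The cause of these shifts was not tested beyond the number of regions each choice leaves. No paired analysis was possible because each H3K27ac condition has 1 list for both replicates and no result comes from a test.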
